A study of Mus musculus with 6 samples.

Results

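Glycolysis enzymes and genes of the hypoxia response, 36 in all, were followed by RNA sequencing in mouse pancreatic tumour cells carrying short hairpin RNAs against Pthlh, which encodes the secreted peptide PTHrP. The members were taken by name from the 24493 genes of the deposited expression table, and all 36 were found. They comprised 20 genes of glucose uptake, the glycolytic steps and the fate of pyruvate, and 16 genes of oxygen sensing and hypoxia-inducible factor (HIF) targets outside glycolysis. The cells were KPCY cells of the C57BL/6 strain, from a genetically engineered pancreatic tumour model in which yellow fluorescent protein marks the lineage. There were 6 libraries, 2 from cells carrying Pthlh hairpin 1, 2 from cells carrying Pthlh hairpin 2, and 2 from cells carrying a non-targeting hairpin (shNT), so every group had been transduced. The series speaks of a pair of parental clones, but the labels tie no library to a clone. Some labels describe tumour cells sorted from animals and others describe culture in DMEM and transduction, so oxygen supply and medium before RNA extraction are not known. Whether the replicates were separate cultures or animals is not stated; if they were not, the p-values reflect technical spread alone.

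Glycolysis splits glucose into pyruvate and yields ATP without oxygen. HIF is a transcription factor whose HIF-1α subunit, encoded by Hif1a, is hydroxylated by the oxygen-dependent enzymes Egln1 and Egln3 and then degraded. When oxygen is scarce the subunit persists and binds hypoxia response elements, short DNA motifs with the core ACGTG or GCGTG, in genes of glycolysis, of the diversion of pyruvate to lactate and of functions such as vessel growth, collagen hydroxylation and removal of mitochondria. Pancreatic tumours are known for poor blood supply and for high glycolytic gene expression.

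Most members were well expressed. Levels are given as scaled TPM, the deposited TPM, a transcript abundance corrected for transcript length and library total, divided by a size factor for each library. The 20 glycolysis genes summed to 11643 and 11794 scaled TPM with hairpin 1, 10580 and 10827 with hairpin 2, and 10165 and 10041 in shNT. On this scale the sums were thus higher in all 4 Pthlh hairpin libraries than in either shNT library. Small RNA entries took 34.5% of TPM in shNT replicate 1 and 20.2% to 24.8% in the other libraries. The order of the sums therefore depends on whether these entries are counted. Gapdh alone made up between 36.3% and 38.9% of the sum in each library. The 16 hypoxia genes together reached 334 and 311 scaled TPM with hairpin 1, 239 and 241 with hairpin 2, and 240 and 242 in shNT. Here the hairpin 1 libraries stood above the others, and the hairpin 2 and shNT libraries overlapped. Eno2, an enolase typical of neurons, Adm, which encodes the vasodilator peptide adrenomedullin, and Car9, a membrane carbonic anhydrase often used as a hypoxia marker, lay under the expression filter of 1 scaled TPM in at least 2 libraries and were not tested. Their highest values in any library were 0.847, 0.281 and 0.592 scaled TPM. The other 33 members were tested.

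The 300-base RefSeq promoter windows of GRCm38.p6 (mm10) around each gene's start were searched for ACGTG and GCGTG on both strands. Of the 36 members, 34 matched an entry, with 52 windows in all; Bnip3l and Ndrg1 were not matched. ACGTG was present in 29 of the 52 windows (55.8%), in 26% of 11288 windows of tested genes and in 19.6% of all 32851 windows. The windows of tested genes covered 8876 of the 11543 genes tested, those with a window under the same symbol. Either core was present in 76.9% of member windows and 63% of windows of tested genes. Some windows of the same gene overlap and hold the same match, as in Aldoa. Counted by gene, 25 of the 34 matched members held ACGTG in any window, and no such count was made for all genes. Many members are listed as HIF targets, so these shares can reflect how the list was chosen, which was not tested. The windows shown belong to members on which the results turn: the first 6 were called higher with both hairpins, and Ldha, Bnip3 and Pfkp with hairpin 1. They were picked after the search to show windows with and without ACGTG. They are printed 5′ to 3′ on the strand of the gene, and capitals mark ACGTG and GCGTG, which read CACGT and CACGC where they lie on the opposite strand. CACGTG holds ACGTG on both strands, and overlapping matches share their capitals.
Pgk1, chrX:106186850-106187149, plus strand: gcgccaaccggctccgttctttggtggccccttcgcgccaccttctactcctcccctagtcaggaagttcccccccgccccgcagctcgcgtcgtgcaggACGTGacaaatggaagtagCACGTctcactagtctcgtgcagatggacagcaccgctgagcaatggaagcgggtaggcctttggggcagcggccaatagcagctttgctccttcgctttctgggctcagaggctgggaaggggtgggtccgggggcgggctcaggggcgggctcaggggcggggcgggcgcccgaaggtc
Slc16a3, chr11:120948817-120949116, plus strand: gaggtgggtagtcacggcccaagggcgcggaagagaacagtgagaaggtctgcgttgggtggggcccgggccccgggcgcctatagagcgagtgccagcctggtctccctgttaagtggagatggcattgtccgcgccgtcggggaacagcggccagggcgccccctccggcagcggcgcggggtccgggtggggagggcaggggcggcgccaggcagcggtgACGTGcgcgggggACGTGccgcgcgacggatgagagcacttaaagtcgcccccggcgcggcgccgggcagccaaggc
Egln3, chr12:54203825-54204124, minus strand: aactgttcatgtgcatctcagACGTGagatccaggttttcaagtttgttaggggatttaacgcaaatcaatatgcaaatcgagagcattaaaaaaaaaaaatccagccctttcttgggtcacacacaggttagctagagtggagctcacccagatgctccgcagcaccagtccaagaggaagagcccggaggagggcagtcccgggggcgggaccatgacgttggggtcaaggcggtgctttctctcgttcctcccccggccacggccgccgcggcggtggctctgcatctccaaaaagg
P4ha1, chr10:59323046-59323345, plus strand: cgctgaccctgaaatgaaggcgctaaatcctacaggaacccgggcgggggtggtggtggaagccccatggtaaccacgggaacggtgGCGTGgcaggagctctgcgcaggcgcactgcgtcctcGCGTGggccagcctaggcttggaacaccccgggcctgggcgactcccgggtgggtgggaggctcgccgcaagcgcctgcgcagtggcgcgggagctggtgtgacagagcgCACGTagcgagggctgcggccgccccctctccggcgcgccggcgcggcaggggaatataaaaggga
Pfkl, chr10:78009758-78010057, minus strand: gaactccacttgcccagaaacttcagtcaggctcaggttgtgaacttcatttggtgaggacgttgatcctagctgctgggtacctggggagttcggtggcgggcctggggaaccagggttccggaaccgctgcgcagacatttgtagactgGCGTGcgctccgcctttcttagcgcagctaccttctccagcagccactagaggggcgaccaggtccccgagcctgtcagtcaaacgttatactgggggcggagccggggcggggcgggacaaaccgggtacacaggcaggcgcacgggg
Pdk1, chr2:71872974-71873273, plus strand: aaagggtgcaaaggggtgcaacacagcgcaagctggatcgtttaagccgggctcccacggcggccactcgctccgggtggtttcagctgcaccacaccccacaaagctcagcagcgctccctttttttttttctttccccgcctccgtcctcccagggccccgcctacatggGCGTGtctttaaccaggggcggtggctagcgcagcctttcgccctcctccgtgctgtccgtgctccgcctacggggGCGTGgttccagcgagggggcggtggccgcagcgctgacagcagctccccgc
Ldha, chr7:46845554-46845853, plus strand: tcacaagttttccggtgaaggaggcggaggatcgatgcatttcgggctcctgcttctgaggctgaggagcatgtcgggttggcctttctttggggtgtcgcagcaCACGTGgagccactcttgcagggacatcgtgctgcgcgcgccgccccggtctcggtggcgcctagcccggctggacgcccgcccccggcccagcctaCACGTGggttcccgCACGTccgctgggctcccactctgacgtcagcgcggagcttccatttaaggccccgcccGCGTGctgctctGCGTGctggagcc
Bnip3, chr7:138909457-138909756, minus strand: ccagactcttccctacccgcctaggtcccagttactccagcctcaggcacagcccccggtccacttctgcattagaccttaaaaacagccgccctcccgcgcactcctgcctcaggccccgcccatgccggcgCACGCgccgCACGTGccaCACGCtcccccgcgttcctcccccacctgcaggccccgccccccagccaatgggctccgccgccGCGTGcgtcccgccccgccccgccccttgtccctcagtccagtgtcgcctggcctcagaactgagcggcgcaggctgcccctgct
Pfkp, chr13:6648722-6649021, minus strand: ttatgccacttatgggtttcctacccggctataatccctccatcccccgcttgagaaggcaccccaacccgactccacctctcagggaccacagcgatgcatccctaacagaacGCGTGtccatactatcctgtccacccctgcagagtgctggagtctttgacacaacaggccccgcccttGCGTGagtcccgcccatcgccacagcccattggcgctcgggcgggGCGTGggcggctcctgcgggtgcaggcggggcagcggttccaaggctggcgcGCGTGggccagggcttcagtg
The Pgk1 and Slc16a3 windows each hold 2 matches to ACGTG and none to GCGTG. The Egln3 window holds 1 match to ACGTG, and the P4ha1 window 1 to ACGTG and 2 to GCGTG. In the Ldha window, counted by strand, there are 5 matches to ACGTG and 2 to GCGTG, and in the Bnip3 window 2 and 3. The windows of Pfkl, Pfkp and Pdk1 hold no ACGTG, with 1, 4 and 2 matches to GCGTG. The other window of Pdk1 and 1 of the 2 windows of Hk1 hold neither core, and the other Hk1 window holds 2 matches to ACGTG and 3 to GCGTG. Among the 7 members called with hairpin 2, ACGTG was present in 55.6% of 9 windows, and among the other tested members in 57.5% of 40. A match is a run of letters and not a binding site, and HIF binding was not measured.

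The targeted gene came first. Pthlh (chr6:147252101-147264183, minus strand, mm10) stood at 0 and 0.104 scaled TPM with hairpin 1, 0.0414 and 0.255 with hairpin 2, and 0.791 and 1.00 in shNT. All 4 Pthlh hairpin libraries were below both shNT libraries, at levels near the lower end of detection. In the mean of both hairpins against shNT, Pthlh fell by 0.79 ± 0.10 on the log2(scaled TPM + 1) scale (SE; limma adjusted p = 0.0108, fitted without the filter), and a one-sided exact permutation test over the 15 splits of 4 against 2 libraries reached its minimum, p = 0.0667. The fall with hairpin 2 alone missed the threshold (limma adjusted p = 0.0573). Without hairpin 1 replicate 1, hairpin 1 replicate 2 or shNT replicate 2, the limma adjusted p for the mean of both hairpins was 0.0640, 0.0586 and 0.0512.

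Some measures outside the members also differed between libraries, in part along the groups. The small RNA entry Mir6236 took 20.4% and 19.7% of TPM with hairpin 1, 23.4% and 21.4% with hairpin 2, and 34.1% and 24.3% in shNT, so it was highest in both shNT libraries; TPM was rescaled for this reason. The shNT replicates lay further apart than the others, with a median gap over all genes of 0.11 (log2) against 0.07 for hairpin 1 and 0.06 for hairpin 2. Of 8 epithelial markers, 6 passed the filter in cells labelled as tumour cells, with keratin 8 (Krt8) at a mean of 1537 scaled TPM, but Epcam was between 0.123 and 0.627. The 8 epithelial markers together ranged from 4268 to 4411 scaled TPM with hairpin 1, 3682 to 3744 with hairpin 2, and 4137 to 4367 in shNT. Within that sum, Krt19 was at 963 and 978 scaled TPM with hairpin 1, 419 and 432 with hairpin 2, and 457 and 433 in shNT. Krt18 was at 1066 and 1081 with hairpin 1, 1315 and 1310 with hairpin 2, and 1606 and 1482 in shNT, and Cdh1 at 232 and 230, 277 and 274, and 328 and 296 in the same order. Krt8 was at 1701 and 1800 with hairpin 1, 1288 and 1347 with hairpin 2, and 1556 and 1533 in shNT. With hairpin 1 Krt19 and Krt8 thus lay above shNT, and Krt18 and Cdh1 below it. With hairpin 2 Krt8, Krt18 and Cdh1 lay below both shNT libraries, and so did Krt19, by little in replicate 2. The summed fibroblast, endothelial and lymphocyte lists stayed at or below 0.549 scaled TPM in every library. Of 9 myeloid markers, Cd14 averaged 67.9 scaled TPM while Adgre1 and C1qa were at 0 in all libraries and Ptprc did not exceed 0.0497. The acinar list summed to 13.5 to 13.7 scaled TPM with hairpin 1, 11.5 to 11.7 with hairpin 2, and 15.2 to 20.9 in shNT, with Cpa1 and Amy2a5 at 0 throughout, and the neutrophil and erythroid lists did not exceed 2.31 and 2.29. Removing small RNA entries is among the alternatives given beside the results; the part of the marker differences was not tested. In bulk RNA, fewer cells expressing a gene and less of its RNA per cell cannot be told apart.

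With hairpin 1, glycolysis and hypoxia genes were mostly higher than in shNT. Of the 33 tested members, 19 were called higher and 2 lower (limma, Benjamini-Hochberg adjusted over 11543 genes, threshold 0.05), while 24% of all genes tested were called higher and 23.2% lower. The median change was 0.39 (log2) over the members and 0.02 over all genes. On the glycolysis side 11 of 19 tested genes rose and 2 fell, and on the hypoxia side 8 of 14 rose and none fell at this threshold. The spread was wide, from -0.95 for Pfkfb3 to 2.42 for Pfkp. In TPM as deposited the median of all genes moved to 0.11 and 32.1% of all genes were called higher and 18.1% lower, and with small RNA entries removed 14.8% and 24.3%; 23 and 17 members were then called higher.

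With hairpin 2, changes were smaller. Of the 33 members, 7 were called higher and 0 lower, against 2.01% and 4.7% of all genes tested; at an unadjusted p under 0.05, 13 members were higher and 3 lower. The median change was 0.11 (log2) over the members and -0.00 over all genes. The 7 were Hk1, Pfkl, Pgk1, Pdk1, Slc16a3, Egln3 and P4ha1, and each was also called higher with hairpin 1; both comparisons use the same 2 shNT libraries. This count depended on scale and on single libraries. It was 12 in TPM as deposited, where 6.62% of all genes were called higher and 3% lower. When small RNA entries were removed it was 2 (Slc16a3 and Egln3), and 1.27% of all genes were called higher and 3.25% lower. Leaving out a single library could raise the count or leave no member called, and the calls over all genes moved with it.

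**Figure D1:**
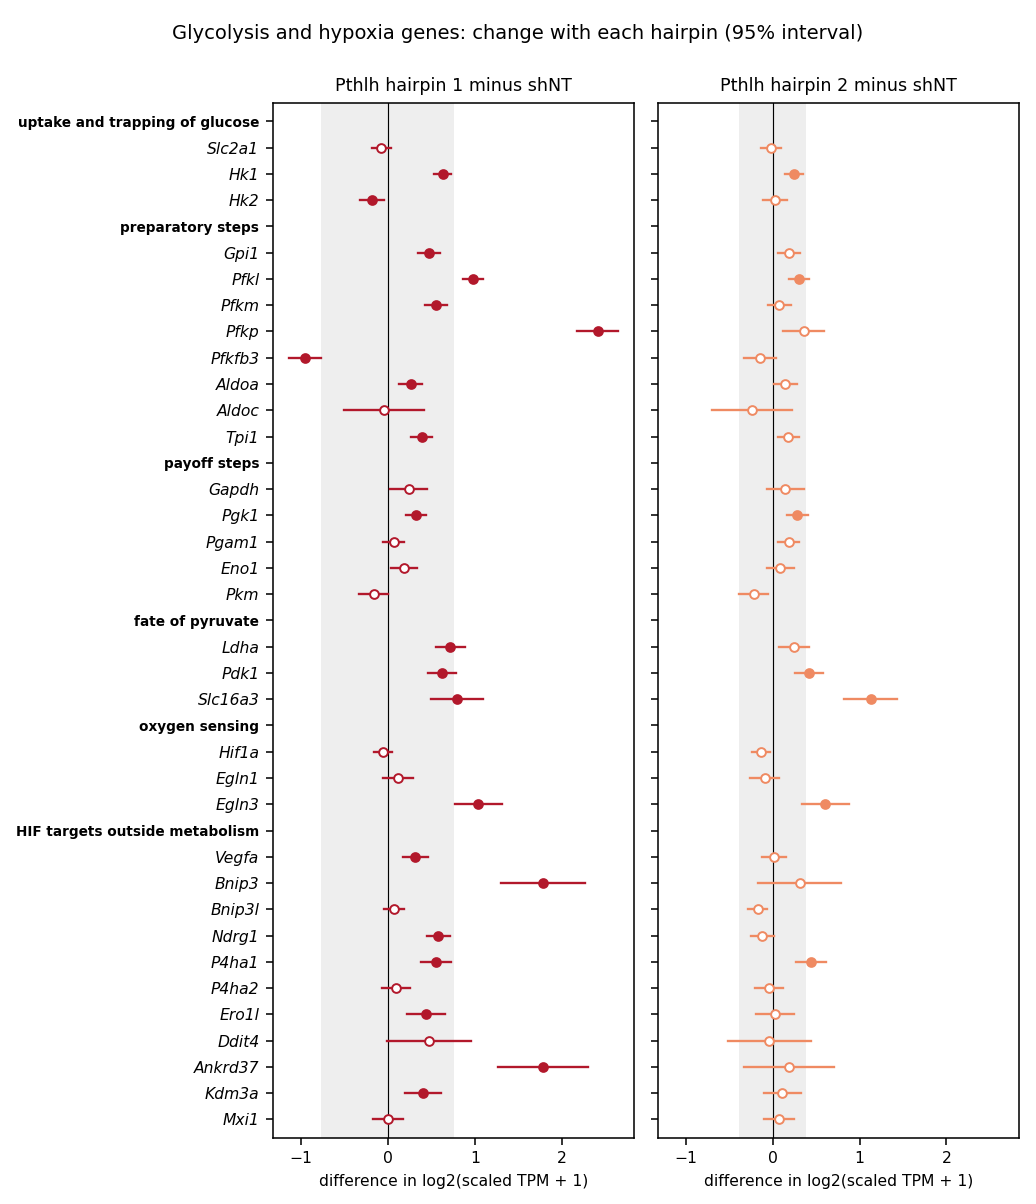
Change of each tested member with hairpin 1 (left) and hairpin 2 (right) relative to shNT, as the difference in log2(scaled TPM + 1) with its 95% interval, ordered by role. Filled points were called by limma, open points were not, and the grey band runs from the 5th to the 95th percentile of all genes tested; with hairpin 1 the points run from -0.95 to 2.42, and with hairpin 2 from -0.24 to 1.13.

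Over the mean of both hairpins against shNT, 18 members were called higher and 2 lower, against 15.7% and 18% of all genes tested (27.3% and 12.1% in TPM as deposited). When the 4 Pthlh hairpin libraries were treated as replicates, which adds the disagreement of the hairpins to the error, 0 members were called by limma in either direction; at an unadjusted p under 0.05, 11 were higher and 1 lower, and 4 of all genes tested were called. In 17 of the 33 members every Pthlh hairpin library lay above both shNT libraries, and in 3, Pfkfb3, Pkm and Hif1a, every one lay below; the same held for 16.3% and 18.8% of all genes tested. Where the hairpins were compared directly, hairpin 2 over hairpin 1, 16 members were lower and 2 higher with hairpin 2, against 20.7% and 19% of all genes tested. That count of 16 fell when any 1 of the 4 Pthlh hairpin libraries was left out. The share of all genes called lower fell as well.

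Uptake and trapping of glucose differed by isoform. Slc2a1 encodes the transporter GLUT1, which brings glucose into the cell and is a classical HIF target. It stood at 70.8 and 70.2 scaled TPM with hairpin 1, 71.9 and 75.1 with hairpin 2, and 72.8 and 76.0 in shNT. Both hairpin 1 libraries lay just below the others, and hairpin 2 and shNT overlapped. The changes of -0.08 ± 0.05 with hairpin 1 and -0.02 ± 0.05 with hairpin 2 were not called (log2, SE; limma adjusted p = 0.227 and 0.843). After each chromosome was centred, Slc2a1 was called lower with hairpin 1, at -0.22 (0.0105).

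Hexokinase phosphorylates glucose and so holds it in the cell; Hk1 is the broadly expressed form and Hk2 the form known as inducible by insulin and HIF. Hk1 stood at 74.59 and 74.99 scaled TPM with hairpin 1, 56.3 and 57.5 with hairpin 2, and 48.4 and 47.4 in shNT. The 3 groups did not overlap. Hk1 rose by 0.63 ± 0.04 with hairpin 1 and by 0.24 ± 0.04 with hairpin 2 (log2, SE; limma adjusted p = 0.000280 and 0.0301). The hairpin 2 call of Hk1 was lost in 9 of 17 alternatives, among them removing small RNA entries (limma adjusted p = 0.258). Hk2 was lower with hairpin 1, at 24.0 and 22.4 scaled TPM, than in shNT, at 26.8 and 26.0, and stood at 27.5 and 26.3 with hairpin 2. It fell by 0.18 ± 0.05 with hairpin 1 (limma adjusted p = 0.0403), and changed by 0.03 ± 0.05 with hairpin 2 (0.786). The hairpin 1 call of Hk2 was lost in 10 of the alternatives, with limma adjusted p up to 0.216. Hk1 made up 76.3% of the summed Hk1 and Hk2 level with hairpin 1, 67.9% with hairpin 2 and 64.5% in shNT; this sum leaves out Hkdc1, a further hexokinase described with the other pathway genes.

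The preparatory steps, which turn glucose 6-phosphate into a pair of triose phosphates, held the largest change among the members. Of 8 genes, all tested, 6 rose and 1 fell with hairpin 1, and 1 rose with hairpin 2. Across all genes tested, 24% were called higher and 23.2% lower with hairpin 1, and 2.01% higher with hairpin 2. Phosphofructokinase commits the sugar to glycolysis and is built from the liver (Pfkl), muscle (Pfkm) and platelet (Pfkp) isoforms. Pfkl stood at 52.5 and 54.5 scaled TPM with hairpin 1, 32.9 and 32.9 with hairpin 2, and 27.3 and 26.0 in shNT. The groups did not overlap, and Pfkl rose by 0.98 ± 0.05 with hairpin 1 and 0.30 ± 0.05 with hairpin 2 (log2, SE; limma adjusted p = 0.000129 and 0.0271). Its hairpin 2 call was lost in 7 of 17 alternatives, among them removing small RNA entries (limma adjusted p = 0.182).

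Pfkp stood at 10.3 and 9.03 scaled TPM with hairpin 1, 1.55 and 1.55 with hairpin 2, and 1.04 and 0.949 in shNT. Hairpin 1 libraries were far above the rest, with a group mean 9.71 times that of shNT. It rose by 2.42 ± 0.09 with hairpin 1 (limma adjusted p = 8.2e-05), while the value of 0.35 ± 0.09 with hairpin 2 missed the threshold (0.0838). Between the hairpins it was -2.06 ± 0.09 (hairpin 2 minus hairpin 1, limma adjusted p = 0.000166), the largest such difference among the members. Pfkm rose with hairpin 1 by 0.55 ± 0.05 (limma adjusted p = 0.000861), with means of 61.4, 43.8 and 41.6 scaled TPM for hairpin 1, hairpin 2 and shNT. Of the summed phosphofructokinase level, Pfkp took 7.77% with hairpin 1, 1.98% with hairpin 2 and 1.44% in shNT. The share of Pfkm was 49.3%, 56.0% and 60.03% in the same order, and that of Pfkl 43.0%, 42.1% and 38.5%.

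**Figure D2:**
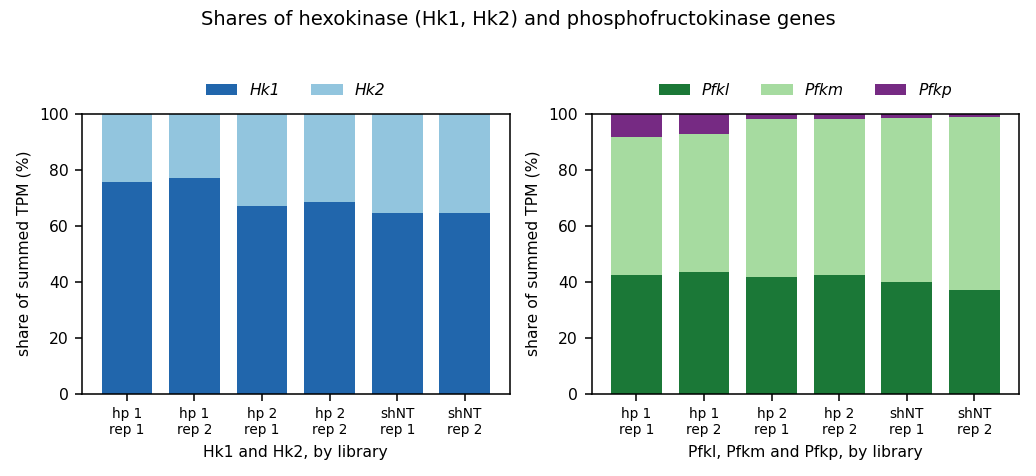
Share of each gene in the summed TPM of Hk1 and Hk2 (left) and of Pfkl, Pfkm and Pfkp (right) in each library; the hexokinase gene Hkdc1 is not in the sum, with hairpin 1 libraries at the left of each panel and shNT at the right. Hk1 took 75.7% and 77.0% with hairpin 1 against 64.4% and 64.6% in shNT, and Pfkp 8.35% and 7.20% with hairpin 1 against 1.53% and 1.35% in shNT.

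Pfkfb3 encodes an enzyme that makes fructose 2,6-bisphosphate, the activator of phosphofructokinase, and is induced by hypoxia. It stood at 2.71 and 2.42 scaled TPM with hairpin 1, 5.21 and 5.21 with hairpin 2, and 6.01 and 5.80 in shNT. All 4 Pthlh hairpin libraries were below shNT. The fall of 0.95 ± 0.07 with hairpin 1 was called (log2, SE; limma adjusted p = 0.000488), and the change of -0.15 ± 0.07 with hairpin 2 was not (0.257). Pfkfb3 lies on chromosome 2, where the median change of all tested genes with hairpin 1 was -0.35. After each chromosome was centred its change with hairpin 1 was -0.60 and still called (limma adjusted p = 0.00234).

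The remaining preparatory enzymes moved less. Gpi1, which converts glucose 6-phosphate to fructose 6-phosphate, rose by 0.47 ± 0.05 with hairpin 1, with means of 169.7 scaled TPM against 122 in shNT. Tpi1, which interconverts the triose phosphates, rose by 0.39 ± 0.05, with means of 526 against 402. Aldoa, the main aldolase, rose by 0.26 ± 0.05, with means of 483 against 403 (limma adjusted p = 0.00133, 0.00191 and 0.0106 for Gpi1, Tpi1 and Aldoa). The Aldoa call was lost when each chromosome was centred (0.203), with quantile normalization (0.298), without small RNA entries (0.169) and without hairpin 1 replicate 1 (0.0598) or 2 (0.0753). With hairpin 2 the changes of Gpi1, Tpi1 and Aldoa were 0.19, 0.18 and 0.14, none of them called. Aldoc, the brain aldolase, was near 1 scaled TPM throughout, with values from 0.642 to 1.38, and was not called.

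In the payoff steps, where ATP and NADH are made, changes were small and 1 of 5 tested genes, Pgk1, was called with each hairpin. The shares called higher over all genes tested were 24% with hairpin 1 and 2.01% with hairpin 2. Pgk1, the phosphoglycerate kinase that makes the first ATP of this phase, stood at 485 and 488 scaled TPM with hairpin 1, 470.0 and 476 with hairpin 2, and 382 and 396 in shNT. Both hairpin groups were above shNT and close to each other. Pgk1 rose by 0.32 ± 0.05 with hairpin 1 and 0.28 ± 0.05 with hairpin 2 (log2, SE; limma adjusted p = 0.00353 and 0.0320), and hairpin 2 minus hairpin 1 was -0.04 (95% interval -0.16 to 0.08). The hairpin 2 call of Pgk1 was lost in 9 of 17 alternatives. Among them were quantile normalization (limma adjusted p = 0.0731) and removing small RNA entries (0.110).

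Gapdh, which makes NADH, had the highest level of all members, 4396 and 4467 scaled TPM with hairpin 1, 4084 and 4214 with hairpin 2, and 3869 and 3646 in shNT. In scaled TPM, Gapdh, Pgam1 (phosphoglycerate mutase) and Eno1 (enolase) each stood above both shNT libraries in all 4 Pthlh hairpin libraries. Their changes were 0.24, 0.07 and 0.19 with hairpin 1 and 0.14, 0.18 and 0.08 with hairpin 2. None of these was called. Over 17 alternatives the hairpin 1 change ran from 0.0055 to 0.33 for Gapdh, -0.03 to 0.21 for Pgam1 and 0.04 to 0.28 for Eno1. Gapdh and Eno1 were called higher with hairpin 1 in TPM as deposited (limma adjusted p = 0.0292 and 0.0152), with no trend in the variance prior (0.0209 and 0.0381), without shNT replicate 1 (0.00557 and 0.00517) and without shNT replicate 2 (0.0152 and 0.0193). Pgam1 was called higher with hairpin 1 after each chromosome was centred (0.0252) and with hairpin 2 in TPM as deposited (0.0380) and without shNT replicate 2 (0.0186). Pkm, the pyruvate kinase of most tissues and tumours, went the other way, at 1926 and 1951 scaled TPM with hairpin 1, 1844 and 1887 with hairpin 2, and 2142 and 2211 in shNT. It was called lower in the mean of both hairpins, by -0.19 ± 0.06 (limma adjusted p = 0.0489), and not with either hairpin alone. Pkm lies on chromosome 9, where the median change of all tested genes was -0.21 with hairpin 1 and -0.19 with hairpin 2, and after each chromosome was centred its change in the mean was 0.016 (limma adjusted p = 0.878). In all, that call of Pkm was lost in 10 of 17 alternatives, among them leaving out any 1 of the 4 Pthlh hairpin libraries. With hairpin 1 Pkm was called lower without small RNA entries, at -0.26 (limma adjusted p = 0.0244). The same held with no trend in the variance prior (0.043). Gapdh, Pgk1, Eno1, Pkm, Ldha and Tpi1 have processed pseudogene copies in the mouse genome that can share reads with them, so their exact levels are uncertain.

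Of the genes that set the fate of pyruvate, 3 of 3 were higher with hairpin 1 and 2 of 3 with hairpin 2. For all genes tested the shares called higher were 24% and 2.01%. Ldha encodes the lactate dehydrogenase subunit that reduces pyruvate to lactate. It stood at 1404 and 1446 scaled TPM with hairpin 1, 1001 and 1042 with hairpin 2, and 829 and 902 in shNT. The groups did not overlap; Ldha rose by 0.72 ± 0.07 with hairpin 1 (log2, SE; limma adjusted p = 0.000861), and its change of 0.24 ± 0.07 with hairpin 2 missed the threshold (0.0968). In TPM as deposited the hairpin 2 change was 0.34 and passed (0.0481).

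Pdk1 encodes the kinase that inhibits pyruvate dehydrogenase and so keeps pyruvate out of the mitochondrial citric acid cycle. Pdk1 stood at 12.6 and 11.4 scaled TPM with hairpin 1, 10.1 and 10.3 with hairpin 2, and 7.41 and 7.38 in shNT. The groups did not overlap. The rise was 0.63 ± 0.06 with hairpin 1 and 0.42 ± 0.06 with hairpin 2 (log2, SE; limma adjusted p = 0.00112 and 0.0269). Its hairpin 2 call was lost in 9 of 17 alternatives, among them removing small RNA entries (limma adjusted p = 0.0850). Pdk1 shares chromosome 2 with Pfkfb3, and the chromosome's medians were -0.35 with hairpin 1 and -0.08 with hairpin 2.

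Slc16a3 encodes MCT4, the transporter that exports lactate from glycolytic cells. Slc16a3 stood at 5.20 and 4.05 scaled TPM with hairpin 1, 5.65 and 6.46 with hairpin 2, and 2.24 and 2.21 in shNT. Every Pthlh hairpin library was well above shNT, and the highest were those of hairpin 2. It rose by 0.79 ± 0.12 with hairpin 1 and 1.13 ± 0.12 with hairpin 2 (log2, SE; limma adjusted p = 0.00399 and 0.0120). Hairpin 2 minus hairpin 1 was 0.33 (95% interval 0.03 to 0.63; limma adjusted p = 0.0774). It was the largest change among members with hairpin 2, and that call was lost without either hairpin 2 library (limma adjusted p = 0.0955 and 0.0993).

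**Figure D3:**
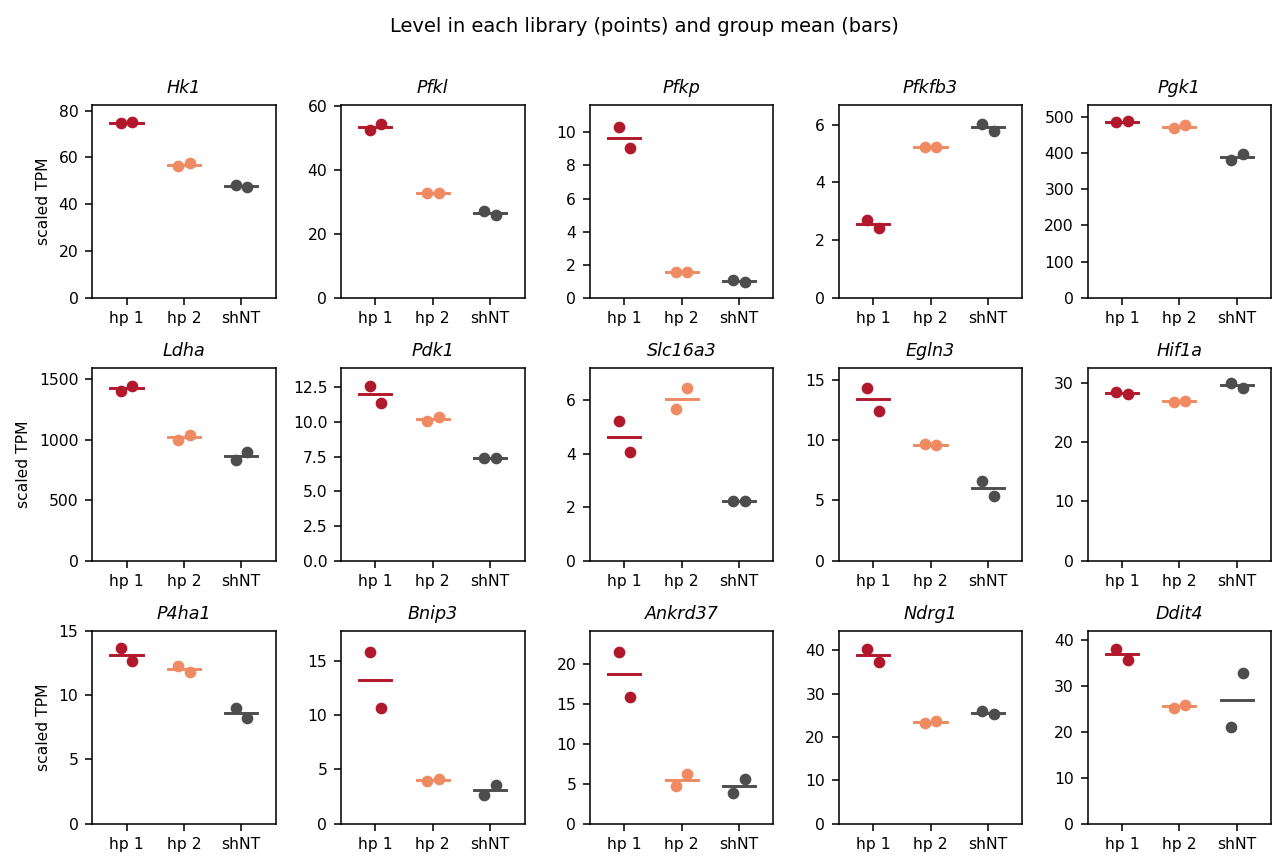
Scaled TPM of 15 members in each library (points) and group means (bars), with hairpin 1 (hp 1) and hairpin 2 (hp 2) left of shNT; every vertical axis starts at 0. Hk1, Pfkl, Pfkp, Pgk1, Ldha, Pdk1, Slc16a3, Egln3, P4ha1 and Bnip3 lie above shNT with both hairpins. Pfkp, Bnip3 and Ankrd37 are far higher with hairpin 1 than with hairpin 2 or in shNT.

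Among the oxygen-sensing genes only Egln3 was called with either hairpin. Hif1a stood at 28.5 and 28.1 scaled TPM with hairpin 1, 26.7 and 27.0 with hairpin 2, and 29.9 and 29.2 in shNT. All 4 Pthlh hairpin libraries were slightly below shNT, but the changes of -0.06 ± 0.04 and -0.13 ± 0.04 were not called (log2, SE; limma adjusted p = 0.284 and 0.122). After each chromosome was centred, Hif1a was called lower with hairpin 1, at -0.22 (0.0337), and in the mean of both hairpins, at -0.20 (0.0429). HIF activity is known to be set mainly through the stability of the protein, which was not measured. Egln1, the main HIF prolyl hydroxylase, averaged 38.8 scaled TPM with hairpin 1, 33.4 with hairpin 2 and 35.8 in shNT and was not called. In TPM as deposited it was called higher with hairpin 1, at 0.20 (limma adjusted p = 0.0379). Hairpin 2 minus hairpin 1 for Egln1 was -0.21, not called, but passed the threshold in 5 of 17 alternatives.

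Egln3, a HIF prolyl hydroxylase that is itself induced by HIF, stood at 14.4 and 12.4 scaled TPM with hairpin 1, 9.68 and 9.58 with hairpin 2, and 6.64 and 5.40 in shNT. The groups did not overlap. Egln3 rose by 1.04 ± 0.11 with hairpin 1 and 0.60 ± 0.11 with hairpin 2 (log2, SE; limma adjusted p = 0.00118 and 0.0373). Without the expression filter, and so with more genes in the adjustment, the hairpin 2 call was lost (limma adjusted p = 0.0777), and likewise with the compared groups alone (0.0825) and after each chromosome was centred (0.0836).

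Of 13 HIF targets outside metabolism, 11 were tested; 7 rose with hairpin 1 and 1, P4ha1, with hairpin 2. Among all genes tested, 24% were called higher with hairpin 1 and 2.01% with hairpin 2. P4ha1 encodes a prolyl hydroxylase subunit needed for stable collagen. P4ha1 stood at 13.6 and 12.6 scaled TPM with hairpin 1, 12.3 and 11.8 with hairpin 2, and 9.04 and 8.25 in shNT. Both hairpin groups were above shNT without overlap. It rose by 0.55 ± 0.07 with hairpin 1 and 0.44 ± 0.07 with hairpin 2 (log2, SE; limma adjusted p = 0.00199 and 0.0269). The hairpin 2 call of P4ha1 was lost in 7 of 17 alternatives, among them removing small RNA entries (limma adjusted p = 0.0873). Its paralogue P4ha2 ranged from 6.79 to 7.68 scaled TPM over all libraries and was not called.

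Bnip3, which marks mitochondria for removal by autophagy, stood at 15.8 and 10.7 scaled TPM with hairpin 1, 3.94 and 4.14 with hairpin 2, and 2.64 and 3.55 in shNT. The hairpin 1 libraries were far above the rest, though they also differed most from each other among the members. Bnip3 rose by 1.79 ± 0.19 with hairpin 1 (log2, SE; limma adjusted p = 0.00131), and its change of 0.31 ± 0.19 with hairpin 2 was not called (0.370). The related Bnip3l averaged 31.2 scaled TPM with hairpin 1, 26.2 with hairpin 2 and 29.7 in shNT. It was not called with either hairpin against shNT. Between the hairpins it was called, at -0.24 ± 0.04 (hairpin 2 minus hairpin 1, limma adjusted p = 0.00942), a call lost in 5 of 17 alternatives. In TPM as deposited Bnip3l was called higher with hairpin 1, at 0.16 (limma adjusted p = 0.0413).

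Ankrd37, a small ankyrin-repeat gene known as a HIF target, stood at 21.4 and 15.8 scaled TPM with hairpin 1, 4.76 and 6.17 with hairpin 2, and 3.86 and 5.55 in shNT. The hairpin 2 and shNT libraries overlapped. It rose by 1.78 ± 0.21 with hairpin 1 (log2, SE; limma adjusted p = 0.00168), and changed by 0.19 ± 0.21 with hairpin 2, not called (0.610). For Bnip3 and Ankrd37 the difference between hairpins, hairpin 2 minus hairpin 1, was -1.48 ± 0.19 and -1.60 ± 0.21, both called (limma adjusted p = 0.00322 each).

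Ndrg1, a stress-responsive gene induced by hypoxia, stood at 40.3 and 37.3 scaled TPM with hairpin 1, 23.2 and 23.6 with hairpin 2, and 25.9 and 25.3 in shNT. Hairpin 1 lay above shNT and hairpin 2 slightly below. The rise of 0.58 ± 0.05 with hairpin 1 was called (log2, SE; limma adjusted p = 0.000774), and the change of -0.12 ± 0.05 with hairpin 2 was not (0.214). The hairpins differed by -0.70 ± 0.05 (hairpin 2 minus hairpin 1, limma adjusted p = 0.000624). Ddit4, an inhibitor of mTORC1 signalling under stress, stood at 37.9 and 35.6 scaled TPM with hairpin 1, 25.2 and 25.7 with hairpin 2, and 20.9 and 32.8 in shNT. Its shNT libraries differed more than those of any other member, and the change was 0.47 ± 0.19 with hairpin 1 and -0.04 ± 0.19 with hairpin 2, neither called. With hairpin 1 it was called higher without shNT replicate 2, at 0.78 (limma adjusted p = 0.000749; 0.16 without shNT replicate 1, not called), and without small RNA entries, at 0.39 (0.0402). Its value with hairpin 2 depended on the shNT library, at 0.27 without shNT replicate 2 (limma adjusted p = 0.0371) and -0.36 without shNT replicate 1 (0.0424).

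A further 3 hypoxia genes rose with hairpin 1 and were not called with hairpin 2. Vegfa, the growth factor of blood vessels, rose by 0.32 ± 0.06 with hairpin 1, with means of 28.3 scaled TPM against 22.5 in shNT; Ero1l, the oxidase that drives disulfide formation in the endoplasmic reticulum, by 0.44 ± 0.09, with 29.7 against 21.6; and Kdm3a, a histone H3 lysine demethylase, by 0.40 ± 0.08, with 17.4 against 12.9 (limma adjusted p = 0.00663, 0.0102 and 0.0121). With hairpin 2 their changes were 0.01, 0.02 and 0.11. The hairpin 1 calls of Vegfa and Kdm3a were lost without small RNA entries (limma adjusted p = 0.0991 and 0.0674) and when each chromosome was centred (0.136 and 0.0659), and that of Kdm3a also without hairpin 1 replicate 1 (0.0657). Mxi1, a MYC antagonist, ranged from 6.41 to 7.31 scaled TPM and was not called.

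Other genes of the same pathways, 71 listed and 50 tested, did not move in 1 direction. With hairpin 1, 18 were called higher and 14 lower, where 24% and 23.2% of all genes tested were, and with hairpin 2, 1 higher and 3 lower, where 2.01% and 4.7% of all genes tested were; their median change with hairpin 1 was 0.08 (log2) against 0.39 for the members. Of 19 tested genes of glycolysis and pyruvate use, 7 rose and 3 fell with hairpin 1 and none was called by limma with hairpin 2. Hkdc1 stood at 11.0 and 12.3 scaled TPM with hairpin 1, 5.08 and 4.93 with hairpin 2, and 4.02 and 4.03 in shNT, and rose by 1.33 ± 0.07 with hairpin 1 (limma adjusted p = 0.000180). Mpc1 and Mpc2, which form the carrier that takes pyruvate into mitochondria, rose by 0.87 ± 0.05 and 0.85 ± 0.11 with hairpin 1 (limma adjusted p = 0.000203 and 0.00251), and their changes with hairpin 2 were -0.00 and 0.25, not called. Pklr, the liver and red cell pyruvate kinase, fell by 0.29 ± 0.05 with hairpin 1 (limma adjusted p = 0.00463) and changed by -0.16 with hairpin 2, not called.

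Of 6 tested components of the HIF pathway, 2 rose and 1 fell with hairpin 1, and 1 fell with hairpin 2. Over all genes tested, 24% were called higher and 23.2% lower with hairpin 1, and 4.7% lower with hairpin 2. Cited2, an inhibitor of HIF that competes for its coactivator, fell by 0.57 ± 0.05 with hairpin 1 (limma adjusted p = 0.000791), and changed by -0.06 with hairpin 2. Siah2, a ubiquitin ligase that destabilises HIF prolyl hydroxylases, changed by -0.07 with hairpin 1 and fell by 0.29 ± 0.05 with hairpin 2 (limma adjusted p = 0.0380).

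The 25 other HIF targets that were tested split, with 9 higher and 10 lower with hairpin 1 and 1 higher and 2 lower with hairpin 2. Over all genes tested, 24% were called higher and 23.2% lower with hairpin 1, and 2.01% and 4.7% with hairpin 2. Angptl4, an inhibitor of lipoprotein lipase, stood at 22.4 and 23.6 scaled TPM with hairpin 1, 43.8 and 47.7 with hairpin 2, and 71.7 and 67.8 in shNT. All Pthlh hairpin libraries were below shNT, with falls of 1.56 ± 0.06 with hairpin 1 and 0.60 ± 0.06 with hairpin 2 (log2, SE; limma adjusted p = 8.61e-05 and 0.0112). Stc2, a secreted glycoprotein, stood at 16.3 and 17.6 scaled TPM with hairpin 1, 3.88 and 4.51 with hairpin 2, and 2.08 and 2.95 in shNT, and rose by 2.36 ± 0.14 with hairpin 1 (limma adjusted p = 0.000218), its change of 0.57 with hairpin 2 missing the threshold (0.0681). Errfi1, a feedback inhibitor of EGF receptor signalling, fell by 0.49 ± 0.07 and 0.47 ± 0.07 with hairpins 1 and 2 (limma adjusted p = 0.00240 and 0.0226). Hmox1, which degrades haem, rose by 0.32 ± 0.05 with hairpin 1 and 0.45 ± 0.05 with hairpin 2 (0.00553 and 0.0156).

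**Figure D4:**
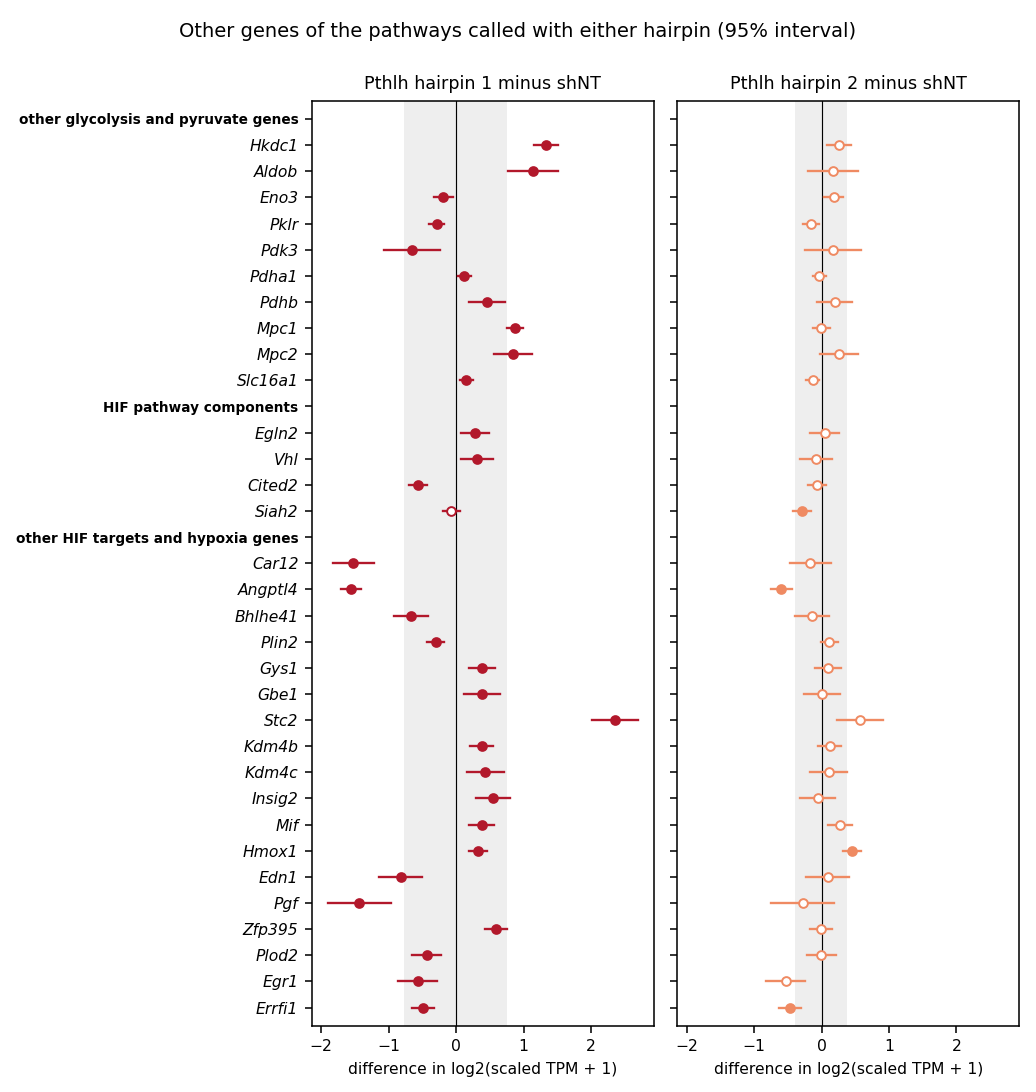
Change of other pathway genes that limma called with at least 1 hairpin, for hairpin 1 (left) and hairpin 2 (right) relative to shNT, as the difference in log2(scaled TPM + 1) with its 95% interval; filled points were called and the grey band runs from the 5th to the 95th percentile of all genes tested. Points lie on both sides of 0, from Angptl4 at -1.56 to Stc2 at 2.36 with hairpin 1.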

How the data were processed

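The authors deposited 1 table of TPM with 24493 genes, in which each library sums to 1000000. The authors used Salmon, R 3.5, DESeq2 and the mm10 build, as listed in the submitters' processing notes; a Salmon version and the role of DESeq2 are not given in the sources used here. Per the labels, extraction was by Qiagen RNeasy and Novogene built the libraries. TPM keeps no record of reads, so depth is unknown and no counting interval is given.

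Each library was divided by a median-ratio size factor. Genes reaching 1 scaled TPM in 2 or more libraries, 11543 in all, were tested on log2(scaled TPM + 1) in limma (version 3.58.1, under R 4.3.3). All 6 libraries entered 1 fit with a mean per group and a variance prior with a trend, and p-values were adjusted by Benjamini-Hochberg (threshold 0.05, two-sided). The scale understates changes of low genes.

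The members and gene lists were chosen with earlier results of these data known. Values in every library were planned for members called with both hairpins and the 8 with the largest difference between hairpins; Slc2a1, Hk2, Gapdh, Pkm and Hif1a were added after their values were seen. Up to 4 other genes per list were named by smallest p in the mean of both hairpins. Positions are from GENCODE M21, and promoter windows from RefSeq. Protein sequences were not used here. 1 other pathway gene enters the counts and is not reported here.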

Additional observations from a re-analysis of the deposited data

How the results depend on the processing

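Each choice was changed in turn: the scaling, the pseudocount, the filter, the variance prior, the libraries in the fit, a replicate block and the centring of each chromosome; the alternatives for Pthlh and for the other pathway genes were chosen after seeing the data. With a pseudocount of 0.1 or 0.5 all 132 member values kept their direction and side of the threshold. With hairpin 1, the count of members lower than shNT, 2 in the report, was 1 in TPM as deposited, without the filter, with a mean of at least 5 and with the compared groups alone, and 4 after chromosome centring. With hairpin 2, the count of members higher than shNT, 7 in the report, was 12 in TPM as deposited, 2 without small RNA entries, 3 without the filter and 1 with the compared groups alone. The share of all genes called higher, 2.01% in the report, was 6.62%, 1.27%, 0.622% and 0.424% in the same order. In the mean of both hairpins, the 2 lower members became 1 in TPM as deposited, with quantile normalization, without the filter and with a mean of at least 5, and pooling both hairpins as 1 group of 4 left 0 higher and 0 lower. Between hairpins, the 2 members higher with hairpin 2 became 1 without small RNA entries and with a mean of at least 5, and 4 after chromosome centring. Leaving out each library in turn gave 17 to 22 members higher and 1 to 3 lower with hairpin 1, 0 to 12 higher and 0 to 2 lower with hairpin 2, 14 to 19 higher and 1 to 2 lower in the mean of both hairpins, and 1 to 3 higher and 8 to 20 lower for hairpin 2 against hairpin 1. Such fits leave fewer residual degrees of freedom and assume that the lone library of a group varies like the others. The share of all genes called changed in these fits as well. The Pthlh change in the mean of both hairpins was -0.79 with both hairpins pooled (limma adjusted p = 0.0792), ranged from -0.88 to -0.71 as each library was left out, and was -2.47 with a pseudocount of 0.1. Only 2 values turned direction among those called in either setting: Ddit4 with hairpin 2 was 0.27 without shNT replicate 2 (and -0.36 without shNT replicate 1), and Pkm in the mean of both hairpins was 0.016 after chromosome centring. The cause was not tested. The other pathway genes called higher with hairpin 1, 18 in the report, numbered 9 to 19 over the alternatives. Depth is unknown, so how far counting error limits low genes such as Pthlh, Aldoc, Adm and Car9 cannot be stated.

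Replicate numbers did not pair the libraries: deviations from the group means correlated at -0.04 between the hairpins, 0.02 between hairpin 1 and shNT and 0.01 between hairpin 2 and shNT. With a replicate block, 3 members were higher with hairpin 2 and 1 was lower in the mean of both hairpins.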

Other observations

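Among the other HIF targets, Car12 and Pgf lay far apart between the hairpins; both were picked after their values were seen. Car12, a membrane carbonic anhydrase related to Car9, was at 0.270 and 0.401 scaled TPM with hairpin 1, 2.197 and 2.657 with hairpin 2, and 3.04 and 2.65 in shNT. Pgf, a growth factor related to Vegfa, was at 0 and 0.0613 scaled TPM with hairpin 1, 0.943 and 1.73 with hairpin 2, and 1.68 and 1.91 in shNT. Both fell with hairpin 1 (limma adjusted p = 0.000548 for Car12 and 0.00235 for Pgf) and were not called with hairpin 2 (0.438 and 0.401).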
